A study of Mus musculus with 4 samples.

Results

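Notch pathway genes were followed across the cells of the developing mouse cortex. They were picked by name and are 10 of the 16600 genes in the table: the ligands Dll1, Dll3 and Jag1, the receptors Notch1 and Notch2, the DNA-binding factor Rbpj, and the Hes and Hey family factors Hes1, Hes5, Hes6 and Hey1. All 10 were detected. The cells were sorted at E18.5 for CD24, a pan-neuronal surface marker, and against CD45, a hematopoietic one, and profiled by droplet single-cell RNA-Seq that reads the 3′ end of each transcript. Wild type fetuses, 2 in number, and 2 Setd5+/- fetuses were compared, all on the C57BL/6J strain, with 1 library per fetus. The Setd5+/- animals carry the Setd5GFP allele, a heterozygous knockout present in every cell, and neither group had any other treatment. The libraries are called WT3, WT6, Het5 and Het9 after the prefixes of their cell names.

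Notch signaling passes between touching cells. A ligand of the Delta or Jagged type on one cell binds a Notch receptor on its neighbor, the receptor is cut, and its intracellular part enters the nucleus and joins Rbpj to turn on Hes and Hey genes. In the embryonic forebrain this keeps radial glia as progenitors, because Hes1 and Hes5 repress proneural genes such as Neurog2, which themselves turn on Delta ligands in cells about to become neurons. Dll3 and Hes6 stand apart in this scheme, since Dll3 does not activate Notch in neighboring cells and Hes6 counteracts Hes1.

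Upstream sequences were read for 8 of the 10 genes from RefSeq windows on GRCm38.p6, each covering 250 bases before a transcription start. Those of 3 genes are shown for the letters by which the pathway is read: the Rbpj motif GTGGGAA at the Hes5 gene, and the E-box CAGCTG, a motif bound by proneural factors, at the ligand gene Dll1 and at Hes6. Each is written 5′ to 3′ on the strand of its gene, with the motif in capitals on either strand.
Hes5 (chr4:154960673-154960922, plus strand): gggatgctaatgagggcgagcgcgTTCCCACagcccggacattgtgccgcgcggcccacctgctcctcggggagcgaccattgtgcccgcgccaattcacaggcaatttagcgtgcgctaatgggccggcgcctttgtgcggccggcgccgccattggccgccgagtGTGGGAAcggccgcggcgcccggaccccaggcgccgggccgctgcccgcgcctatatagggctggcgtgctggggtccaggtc
Dll1 (chr17:15376933-15377182, minus strand): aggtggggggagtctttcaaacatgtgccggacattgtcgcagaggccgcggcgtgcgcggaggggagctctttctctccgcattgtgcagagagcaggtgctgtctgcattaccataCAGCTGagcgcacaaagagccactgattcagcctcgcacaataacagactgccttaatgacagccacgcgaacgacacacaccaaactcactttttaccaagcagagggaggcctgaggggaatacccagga
Hes6 (chr1:91414039-91414288, minus strand): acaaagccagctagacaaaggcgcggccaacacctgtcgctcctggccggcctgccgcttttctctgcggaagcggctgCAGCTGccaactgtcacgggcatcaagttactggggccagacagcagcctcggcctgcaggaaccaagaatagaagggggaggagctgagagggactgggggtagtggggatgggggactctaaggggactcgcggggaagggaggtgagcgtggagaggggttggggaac
In Hes5 the Rbpj motif occurs in opposite orientations, starting 226 and 83 bases before the start. It is held by 5.42% of the 32851 windows of all genes. The E-box begins 132 bases before the start in Dll1 and 171 in Hes6, and 13% of all windows hold it. Both genes have a second window, which holds no E-box in Dll1 and holds 1 in Hes6. Among the 8 genes read, 1 held the Rbpj motif and 4 the E-box, which Dll3 and Jag1 also carry. Of all 27025 genes with windows, 1669 held the Rbpj motif and 3979 the E-box. These are matches of letters, and binding was not measured.

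The libraries held 1453 to 1954 cells and 8205330 to 11742956 UMIs (unique molecular identifiers, 1 per captured transcript), with a median of 5398 to 5997 UMIs per cell. In 224 of the 6562 cells, 56 per library, the cell barcode occurred in all 4 libraries. They made up 140 of the 147 cells of cluster 10 and 84 of the 105 cells of cluster 12, and values from these clusters are not independent between libraries. Setd5 itself had a mean level of 1.18 and 1.07 counts per 10000 UMIs in WT3 and WT6, and of 0.540 and 0.586 in Het5 and Het9, lower in both libraries labelled Setd5+/-. Xist, expressed from the inactive X chromosome, was at 20.6 and 21.5 in the wild type libraries and at 0.152 and 0.310 in the Setd5+/- libraries, and the Y-linked Ddx3y was at 0 and 0.000602 against 0.492 and 0.465. Genotype and sex of the fetuses therefore cannot be told apart.

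The cells fell into 15 clusters, built without the Notch genes and named from markers. Cluster 3 was radial glia-like and cluster 6 intermediate progenitor-like, the latter with Neurog2 and Eomes. Clusters 2, 7 and 9 were cycling. Cluster 7 was led by S phase genes together with subpallial progenitor genes such as Gsx1, and cluster 9 by S phase genes together with Neurog2 and Eomes. Clusters 0 and 1 were excitatory neuron-like, cluster 5 interneuron-like, cluster 8 striatal neuron-like, cluster 10 melanocyte-like and cluster 12 immune-like, whereas 4 and 11 stayed unnamed. Cluster 13, with 35 cells, was Cajal-Retzius- or hem-like, and cluster 14, with 27, was erythroid-like. The label of cortical neurons is thus met only in part, since progenitors and subpallial cells were also present. Levels below are the mean of counts per 10000 UMIs over the cells of a library. They are given as a description, with no test of one cluster against the rest.

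**Figure D1:**
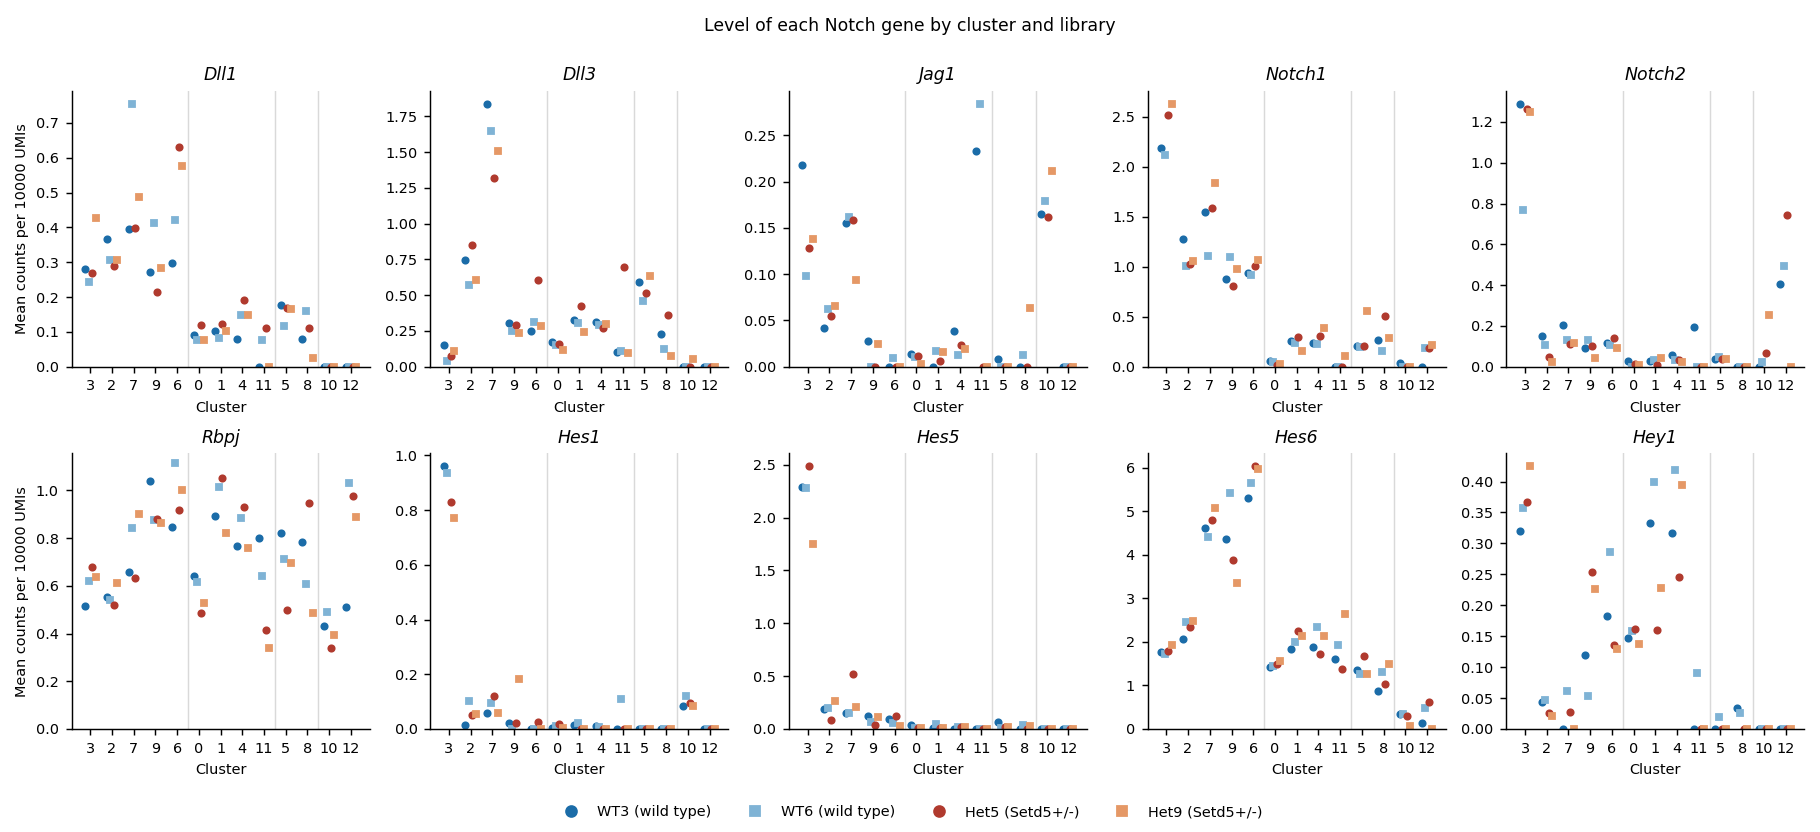
Mean counts per 10000 UMIs (linear vertical axes, each from 0) of each gene by cluster, with 1 point per library. Clusters 3, 2, 7, 9 and 6 are progenitors, 0, 1, 4 and 11 follow, then 5 and 8, then 10 and 12; Hes1, Hes5 and Notch2 stand highest in cluster 3, Dll3 in cluster 7 and Hes6 in cluster 6.

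Among the ligands, Dll1, the main activating ligand of neural progenitors, was spread over all 5 progenitor clusters. In cluster 7 it was at 0.394 in WT3, 0.753 in WT6, 0.398 in Het5 and 0.487 in Het9, and in cluster 6 at 0.297, 0.421, 0.629 and 0.577. The ranges of these clusters overlapped, and those of clusters 2, 3 and 9 followed with means of 0.317, 0.306 and 0.295. Below cluster 9 came a gap between the ranges, so progenitors and all other clusters with enough cells were separate for Dll1. No Dll1 UMI was found in clusters 10 and 12, whose cells carry 39 and 36 distinct barcodes. Counted over these barcodes, a count of 0 allows a share of up to 7.69% and 8.33% with one.

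Dll3 had another pattern, with a higher peak in cluster 7. Its level in cluster 7 was 1.83, 1.65, 1.32 and 1.51 in WT3, WT6, Het5 and Het9. Every one of these values exceeded the highest of cluster 2, next in order with a mean of 0.695 ± 0.128 (SD, n = 4). Interneuron-like cluster 5 came next at 0.549 ± 0.0777 (SD, n = 4), and its range overlapped that of cluster 2. Radial glia-like cluster 3, in contrast, held 0.150, 0.0379, 0.0756 and 0.107, below the Dll1 level of the same library in all 4. Both counts are of molecules tagged at their 3′ end, which do not scale with transcript length.

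Jag1, the Jagged ligand of the set, was scarce. Its mean was 0.145 ± 0.0511 (SD, n = 4) in cluster 3 and 0.142 ± 0.0324 in cluster 7. In melanocyte-like cluster 10 it was 0.179, from 17 UMIs. Most cells there carry a barcode found in all 4 libraries, so its library values are not independent. The ranges of clusters 10, 3 and 7 overlapped, each with the next. In cluster 6, where Dll1 was high, a Jag1 level above 0 was found in WT6 alone, at 0.00987.

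Of the receptors, Notch1 was present in all progenitors whereas Notch2 was far higher in radial glia-like cells than in the other progenitors. Notch1 in cluster 3 was at 2.19, 2.12, 2.51 and 2.63 in WT3, WT6, Het5 and Het9, above the range of cluster 7, whose mean was 1.52 ± 0.305 (SD, n = 4). Clusters 2, 6 and 9 lay close together at 1.09, 0.983 and 0.942 with overlapping ranges, and cluster 9 in turn did not overlap the next cluster. Notch2 in cluster 3 was at 1.29, 0.770, 1.26 and 1.25, with WT6 lowest. Cluster 3 held 10.7% of the cells but 74.0% of all Notch2 UMIs and 40.3% of all Notch1 UMIs. Immune-like cluster 12 was next for Notch2 at a mean of 0.409 from 8 UMIs, although Het9 had none there. Most of its cells carry a barcode found in all 4 libraries, so its library values are not independent.

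Rbpj, which every canonical Notch signal needs, varied little between clusters. Its means ran from 0.414 in cluster 10 to 0.971 in cluster 6, and each cluster overlapped its neighbor in that order. In radial glia-like cells, where the receptors peaked, it was at 0.514, 0.621, 0.677 and 0.638.

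Hes1 and Hes5, the repressors that Notch turns on, marked the same cluster as Notch2. Hes5 in cluster 3 was at 2.29, 2.28, 2.48 and 1.75, and the cluster held 82.8% of all Hes5 UMIs, 1076 of 1300. The next cluster, 7, had a mean of 0.255 ± 0.176 (SD, n = 4). Hes1 in cluster 3 was at 0.959, 0.935, 0.831 and 0.773, with 85.5% of its UMIs, 444 of 519. After cells were thinned to 3000 UMIs each to remove the effect of depth, a Hes5 UMI was found in 35.8% of 696 cells of cluster 3. The share was 1.16% of 430 cells in interneuron-like cluster 5, where little Hes5 would be looked for, with median depths of 6956.5 and 4370.5 UMIs before thinning. Unthinned, the shares were 54.1% and 1.09%.

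Hes6, in contrast, was lower in radial glia-like cells than in committed progenitors. It was at 5.30, 5.66, 6.03 and 5.98 in cluster 6, above the range of cluster 7 at 4.72 ± 0.276 (SD, n = 4), while the range of cluster 9 at 4.26 ± 0.879 overlapped both. In cluster 3 it was at 1.77, 1.72, 1.79 and 1.92, and its mean lay between those of neuron-like clusters 0 and 1. Hey1 followed neither pattern. It was highest in cluster 3 at 0.367 ± 0.0431 and overlapped there with unnamed cluster 4 at 0.344 ± 0.0784 and excitatory neuron-like cluster 1 at 0.280 ± 0.106, while clusters 2 and 7 had at most 0.0469 and 0.0621 in any library. Hey1 was thus present in most clusters with pallial markers and low in those with subpallial markers. Exceptions were cluster 11 and the small cluster 13, which held 1 Hey1 UMI in 35 cells. Within cluster 3 Hey1 was not particular to cells called pallial, at 0.303 ± 0.0345 in these against 0.367 over the whole cluster.

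The genes most alike in pattern were sought over 52 pairs of cluster and library from 13 clusters. Pearson's r was taken on log2 values, and it describes points that share libraries, depth and cell makeup. Those of clusters 10 and 12 also share barcodes between libraries. Hes5 was closest to Mlc1 (r = 0.93) and Pdpn (0.91), and Hes1 to Ccdc80, Pdpn and Mlc1 (0.88, 0.87 and 0.86). Notch1 and Dll1 had the same nearest gene, Grb10 (0.93 and 0.90). Hes6 was closest to Polr3k (0.91), and Hey1 to Cachd1 (0.91) and Lhx2 (0.86). For Dll3, Jag1 and Rbpj the nearest gene reached only 0.80, 0.75 and 0.72. Between the genes themselves, Hes1 and Hes5 had r = 0.88, Notch1 and Dll1 0.83, Dll1 and Hes6 0.80, and Hes1 and Dll3 -0.15.

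The second comparison asked how pallial and subpallial progenitors differ in these genes. Cells of the cycling clusters were divided by UMIs of 8 pallial genes such as Emx1 and Eomes and 9 subpallial genes such as Dlx2 and Gsx2, none of them a Notch gene. This gave 171 pallial and 1053 subpallial cells. Dll3 was higher in the subpallial cells, Hes6 and Rbpj were lower, and the other genes tested did not pass. The pallial cells came almost wholly from cluster 9 and the subpallial ones from clusters 2 and 7, so the cell cycle moved with the class: the summed level of 12 cycling genes ranged from 43.3 to 68.0 in pallial and from 71.1 to 83.5 in subpallial libraries.

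Dll3 was at 0.309, 0.256, 0.299 and 0.167 in the pallial cells of WT3, WT6, Het5 and Het9 and at 1.15, 1.02, 0.965 and 0.968 in their subpallial cells. The classes did not overlap, and all 4 libraries went the same way. With the library as a block, limma gave a log2 fold change of 1.67 ± 0.18 (SE; adjusted p = 1.04e-11). Hes6 was at 4.56, 5.18, 3.95 and 3.47 in pallial and at 2.88, 3.12, 3.11 and 3.43 in subpallial cells, lower in the subpallial cells of each library but by very little in Het9. Its log2 fold change was -0.43 ± 0.10 (SE; limma adjusted p = 8.99e-04). Rbpj was at 1.04, 0.836, 0.917 and 0.895 in pallial and at 0.587, 0.682, 0.547 and 0.738 in subpallial cells, with no overlap and a log2 fold change of -0.47 ± 0.16 (SE; limma adjusted p = 0.0325). Of the 6 genes tested 3 were called, beside 14% of the 7642 genes tested in all, and 6.5% and 7.51% higher and lower in subpallial cells.

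**Figure D2:**
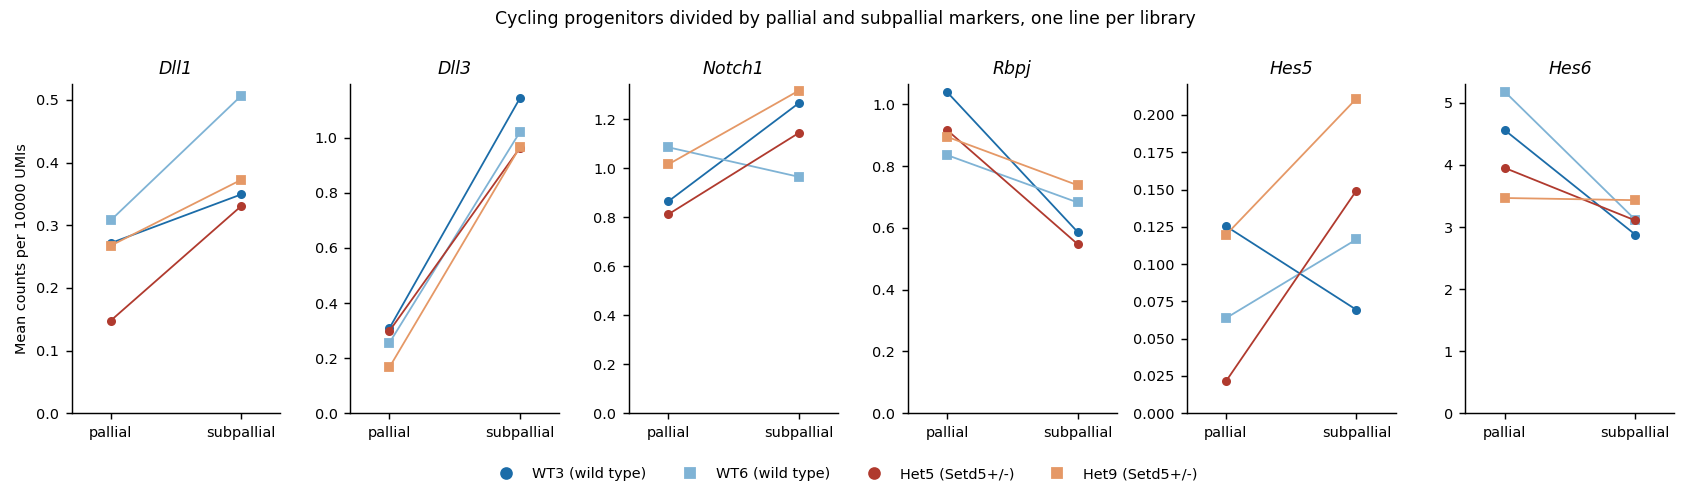
Mean counts per 10000 UMIs (vertical axes from 0) in pallial and subpallial cycling progenitors, with 1 line per library. Dll3 is higher in the subpallial cells of all 4 libraries, Hes6 and Rbpj are lower in all 4, and Notch1 and Hes5 each have 1 library that goes against the other 3.

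Dll1 was higher in the subpallial cells of all 4 libraries, with a log2 fold change of 0.50 ± 0.21 (SE; limma adjusted p = 0.104). Notch1 had 0.28 ± 0.14 (adjusted p = 0.211) and Hes5 0.38 ± 0.25 (adjusted p = 0.382), each higher in 3 of 4 libraries. Hes1, Hey1, Notch2 and Jag1 were under the level filter of 0.1 and got no test. When only the S phase-led clusters were used, subpallial cells of cluster 7 against pallial cells of cluster 9, a choice made after the data were seen, the cell cycle still moved with the class, but the other way: the 12 cycling genes summed to 12.3 to 16.9 in cluster 7 and to 44.6 to 66.6 in cluster 9. Dll3 then stood at 2.34 ± 0.20 (limma adjusted p = 2.69e-23), and Dll1 at 0.77 ± 0.24 (0.0109) and Notch1 at 0.49 ± 0.16 (0.0209) passed as well. Hes6 then turned to 0.17 ± 0.10 (0.294) and Rbpj weakened to -0.25 ± 0.18 (0.412), beside 16.7% of genes called. The calls for Hes6 and Rbpj were also lost with cells thinned to 3000 UMIs (limma adjusted p = 0.187 and 0.0629) and with no filter on low values (0.0695 and 0.0849). Rbpj in addition lost its call without WT3 (0.192) or Het5 (0.164), and Hes6 without WT6 (0.0522).

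Among the 75 genes of 9 Notch lists, 46 could be tested between the classes, and 6 were higher and 6 lower in subpallial cells, beside 6.5% and 7.51% of all genes, with a median log2 fold change of -0.02 against -0.01 over all genes. Besides the genes above, the corepressor Tle1 was at 0.223 to 0.418 in pallial and 1.22 to 1.45 in subpallial libraries, a log2 fold change of 1.80 ± 0.17 (SE; limma adjusted p = 1.07e-13). The Hes-related repressor Helt had no UMI in any of the 171 pallial cells, which allows a share of up to 1.75%, and 0.337 to 0.590 in subpallial ones. The targets Sox9 (1.17) and Id4 (1.38) and the ligand-like Dner (1.15) were also higher. Mfng, which adds sugars to Notch (-0.42), the Numb relative Numbl (-0.78), the feedback inhibitor Nrarp (-0.63) and the deacetylase Hdac2 (-0.25) were lower. Between cluster 7 and cluster 9 alone, Mfng turned to 0.12 (limma adjusted p = 0.624) and Numbl was at -0.37 (0.350), so neither call held there. The proneural gene Neurog2 had a log2 fold change of -5.92, but it was open to the clustering and is among the leading genes of cluster 9.

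Genotype was compared next. No gene of the 10 passed between Setd5+/- and wild type cells, over all cells or within any cluster. Over all cells, Hes5 was at 0.214, 0.343, 0.394 and 0.193 in WT3, WT6, Het5 and Het9, and Hes1 at 0.0758, 0.147, 0.134 and 0.0796. WT6 and Het5 were high for both genes, and the genotypes overlapped. The share of radial glia-like cells was likewise high in WT6 and Het5, at 6.61%, 12.8%, 13.6% and 8.44%. With the share of each cluster held equal between libraries, an alternative added after the data were seen, the log2 fold change by genotype was -0.11 for Hes1 and -0.062 for Hes5 (limma adjusted p = 0.930 and 0.964). Notch1 was at 0.614, 0.648, 0.762 and 0.626, and Rbpj at 0.717, 0.754, 0.719 and 0.676.

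Of the 9 genes tested over all cells, limma called 0, beside 0.086% of 8137 genes, and 0 had an unadjusted p under 0.05, beside 4.34% of all genes. Log2 fold changes ran from -0.12 for Dll3 (SE 0.13) to 0.15 for Notch2 (SE 0.12), and levels of 0 of the 9 genes were separate between genotypes, beside 32% of all genes. Jag1 was under the filter. Of the 75 genes of the Notch lists, 48 were tested and 0 called, with 1, Dner at -0.33 ± 0.09 (SE; limma adjusted p = 0.792), at an unadjusted p under 0.05. Setd5 passed at -0.89 ± 0.08 (SE; limma adjusted p = 0.00696).

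**Figure D3:**
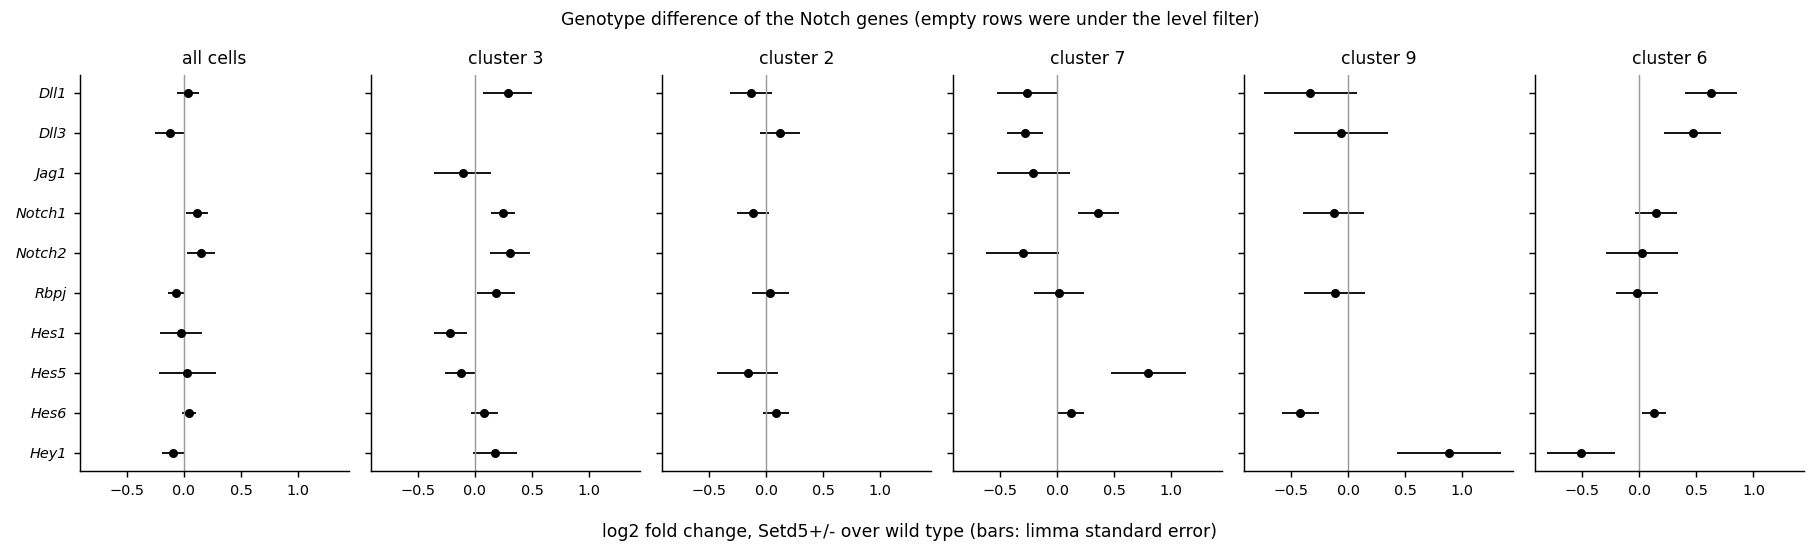
Log2 fold change of Setd5+/- over wild type libraries on the scale of counts per 10000 UMIs plus 0.1, with limma standard errors as bars, over all cells and in the 5 progenitor clusters. No point passed the adjusted threshold. The farthest from 0 in clusters 6 and 7 are Dll1 at 0.63 and Hes5 at 0.80. Hey1 in cluster 9 also lies far from 0, with levels of 0.120, 0.0532, 0.253 and 0.226 in WT3, WT6, Het5 and Het9.

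Within 13 clusters, 72 pairs of gene and cluster were tested and limma called 0, beside 0.13%, 0.144%, 0.108%, 0.194%, 0.13%, 0.0911%, 0.134%, 0.161%, 0.0798%, 0.079%, 0%, 0.0127% and 0% of all genes called in clusters 0 to 12. An unadjusted p under 0.05 was found for 6 of the 72 pairs, beside 5.11% of all pairs of gene and cluster. They lay in clusters 1, 3, 6, 7, 9 and 11, with 1 in each. In cluster 1, where the lowest limma adjusted p was 0.639, Hey1 was lower in both Setd5+/- libraries. It was at 0.333, 0.399, 0.160 and 0.228 in WT3, WT6, Het5 and Het9. In radial glia-like cluster 3, Notch1 was higher in both Setd5+/- libraries (values above), with a log2 fold change of 0.24 ± 0.11 (SE; limma adjusted p = 0.965). Hes1 was at -0.22 ± 0.15 (adjusted p = 0.972), lower in both, but turned to 0.021 with cells thinned to 3000 UMIs, where the shares of cells with a Hes1 UMI overlapped. Hes5 at -0.12 ± 0.14 (0.972) overlapped. Levels of 5 of 9 genes did not overlap between genotypes in cluster 3, beside 33.6% of all genes there. The share of cells called pallial in this cluster moved with genotype, at 56.2% and 59.8% in the wild type and 68.7% and 68.9% in the Setd5+/- libraries. Among its pallial cells alone, a choice made after the data were seen, 2 of 9 genes did not overlap, Notch1 and Dll1, beside 32.2% of genes. In cluster 6, Dll1 was higher in both Setd5+/- libraries at 0.63 ± 0.23 (limma adjusted p = 0.729), and 4 of 7 genes did not overlap, beside 31.8%. In cluster 7, Hes5 was at 0.150, 0.149, 0.517 and 0.206, a difference of 0.80 ± 0.33 (SE; limma adjusted p = 0.716) with Het5 far above Het9, and 5 of 8 genes did not overlap, beside 35.2%. In clusters 2 and 9, 1 of 6 and 2 of 6 genes did not overlap, beside 34% and 33.5%. A log2 fold change on this scale understates that of low genes.

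In cells thinned to 3000 UMIs, the share with a UMI was compared by the exact two-sided permutation test, whose smallest p is 0.333 with 2 libraries against 2. Over all cells the shares of 0 of the 10 genes were separate, beside 32.6% of genes. In cluster 3, 4 of 10 were, beside 33.2%: Notch1 was found in 42.1% and 45.4% of wild type and 50.2% and 52.9% of Setd5+/- cells, and Notch2 in 17.9%, 17.9%, 24.5% and 23.1%. The Notch1 share was also higher in both Setd5+/- libraries in cluster 7, at 39.6% and 31.9% against 28.7% and 26.6%. In cluster 2 it was lower in both, at 26.8% and 26.9% against 32.7% and 29.4%. Notch2 was lower in both there too, at 1.05% and 0.840% against 3.57% and 3.27%. For clusters 2 and 7 the part of all genes that separated was not computed. The genotype effect was also compared between subpallial and pallial cycling cells, where limma called 0 of 6 genes, beside 0.0393% of genes. An unadjusted p under 0.05 was found for 1 of the 6, Hes6 at 0.50 ± 0.19 (SE; limma adjusted p = 0.958), beside 4.96% of all genes.

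In the same cluster 3, Neurog2, one of the genes that Hes1 and Hes5 repress, was at 2.26, 2.24, 3.90 and 4.41 in WT3, WT6, Het5 and Het9. Its log2 fold change of 0.85 ± 0.10 (SE; limma adjusted p = 1.25e-04) passed. Neurog2 was open to the clustering. Among the pallial cells of the cluster alone, the log2 fold change of Neurog2 was 0.56 (limma adjusted p = 0.0173). With a library left out, the adjusted p rose to 0.0488 without WT3 and 0.0374 without WT6. None of the 53 Notch list genes tested in the cluster was called by limma, and 4 had an unadjusted p under 0.05, beside 5.03% of all genes there.

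The last comparison set ligand-bearing cells against Hes-bearing cells within a library. Over the 5 progenitor clusters, a Hes5 UMI was found in 10.2%, 14.5%, 10.6% and 9.80% of cells with a Dll1 UMI and in 8.50%, 10.7%, 13.03% and 9.17% of cells without, in WT3, WT6, Het5 and Het9. The shares without Dll1 are averages over the clusters, weighted by the Dll1-positive cells of each, so that cluster makeup is the same on both sides. The mean difference was 0.925 percentage points ± 2.59 (SD, n = 4; exact two-sided sign permutation p = 0.625), higher in 3 libraries and lower in 1. With 4 libraries the smallest p is 0.125, and 32 such comparisons were made, so no adjusted p could pass.

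Within radial glia-like cluster 3 alone, a Hes1 UMI was found in a smaller and a Hes6 or Neurog2 UMI in a larger share of the cells with a Dll1 UMI in each library, though no test here could pass. Only 51 such cells were left after thinning, 7 in the library with fewest, and counting error is wide. A Hes1 UMI was found in 14.3% of them in WT3 and in 0% in WT6, Het5 and Het9, against 20.5%, 20.8%, 23.7% and 20.9% of the cells without Dll1. With 15, 18 and 11 cells in the libraries at 0%, a count of 0 allows a share of up to 20%, 16.7% and 27.3% by counting error alone. The difference was -17.9 points ± 7.93 (SD, n = 4), lower in 4 of 4 libraries (exact p = 0.125). Hes6 was found in 42.9%, 80.0%, 66.7% and 72.7% against 27.3%, 36.0%, 27.5% and 33.6%, higher in 4 of 4 by 34.5 points ± 12.8 (exact p = 0.125). Neurog2 was likewise higher in 4 of 4, by 40.2 points ± 17.9 (exact p = 0.125). For Hes5 the difference was -12.4 points ± 14.8, lower in 3 of 4 libraries (exact p = 0.25). Cells with a Hes5 UMI had a Neurog2 UMI less often in 4 of 4 libraries, by -12.4 points ± 4.56, and cells with a Hes1 UMI had a Hes5 UMI more often in 4 of 4, by 7.68 ± 3.78 (exact p = 0.125 each). Cells with and without a Dll1 UMI also differed in makeup within cluster 3. Before thinning, 448 of its 702 cells were called pallial, against 69 of its 86 cells with a Dll1 UMI. A Hes6 UMI was found in 57.1% of the pallial cells and in 51.0% of all cells of the cluster. Whether this makeup moved the shares was not tested.

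**Figure D4:**
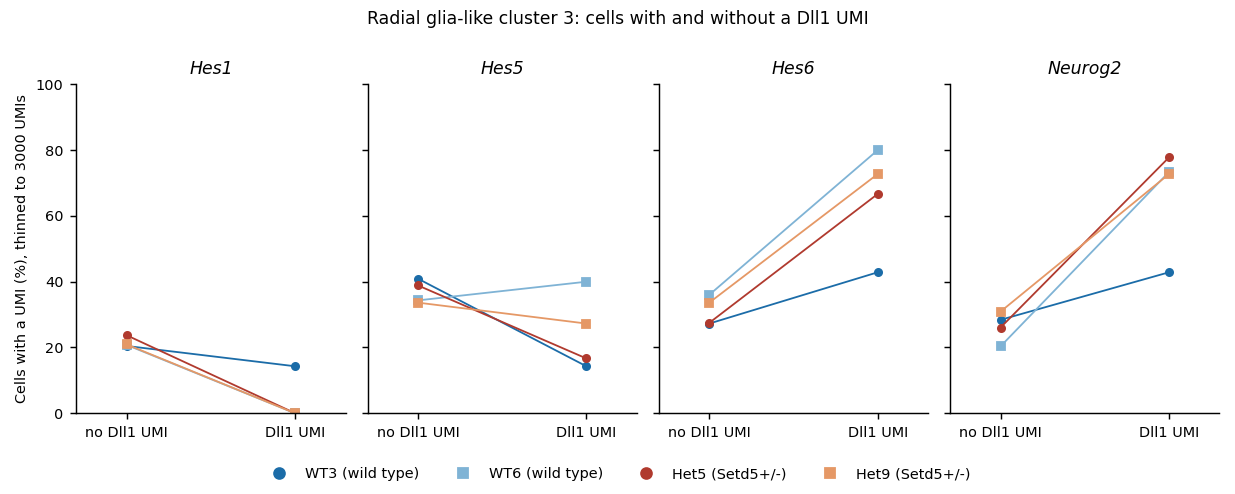
Percent of cells of radial glia-like cluster 3 with a UMI of each gene (vertical axis 0 to 100) among cells without and with a Dll1 UMI, thinned to 3000 UMIs, with 1 line per library. Hes1 is lower and Hes6 and Neurog2 are higher in Dll1-positive cells of all 4 libraries, and Hes5 is mixed.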

How the data were processed

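Per the labels, CD24+ CD45- cells were run on the 10x Genomics Single Cell 3′ kit (V2), and the submitters' processing notes name mm10, Cell Ranger 2.1 and Seurat 2.3.0. For strand use and limits on cells nothing was found in the labels or methods. The table deposited by the authors holds the natural log of 1 plus counts scaled to 10000 UMIs in each cell. Whole UMIs were recovered for 100% of values above 0 (tolerance 0.001). The prefixes of cell names give the genotype but not the labels' replicate numbers. For genotype, limma p-values rest on 2 fetuses per genotype. Those for pallial against subpallial cells rest on differences within the 4 libraries. Both use a variance drawn in part from all genes, so they do not measure the spread of a single gene alone.

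Clusters came from 2000 variable genes without the Notch lists, Setd5 and the genes the study names for its own cluster 3, 20 principal components, 20 neighbors and Leiden at resolution 0.4. Scrublet called 64 doublets (0.975%), which were kept in the main values. Library means were compared by limma with a variance trend on log2(mean + 0.1), for genes whose mean reached 0.1 and clusters holding 20 or more cells per library, with Benjamini-Hochberg adjustment over all genes and a threshold of 0.05. A cycling cell needed 3 marker UMIs and a subpallial share of at least 0.8 or at most 0.2. The fits were tested on simulated data. All 10 genes are named by rule, with the list genes called (up to 5 by adjusted p, others given by value) and the 3 nearest genes in pattern; Xist, Ddx3y and Neurog2 serve as checks or as a background target. A few results that the rule would name are not reported here. The members and lists were chosen with earlier results of these data known. Alternatives are in the closing section. Promoter windows of Hes1 and Hey1 were not analysed here. Software was Python 3.11.15, scanpy 1.11.5, igraph 0.11.9, leidenalg 0.10.2, scipy 1.17.1, R 4.3.3 and limma 3.58.1.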

Additional observations from a re-analysis of the deposited data

How the results depend on the processing

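No gene of the 10 was called by genotype, over all cells or in clusters, under any alternative run, and the count of other list genes called over all cells also stayed at 0. The count between pallial and subpallial cycling cells, 3, fell to 1 with no filter on low values and to 1 with cells thinned to 3000 UMIs. In that comparison, Rbpj lost its call in 8 alternatives and Hes6 in 4, and in 1 of these it turned to 0.17 with subpallial cells of cluster 7 only, whereas Dll3 passed in all 18. The count of genes with separate shares by genotype, 0, was 1 in unthinned cells and 4 to 7 with a library left out, where 1 library faces 2. The difference of Hes5 shares between cells with and without Dll1 turned to -0.00967 points at 4000 UMIs and -3.20 at the lower resolution, and ran from -0.0321 (without WT6) to 2.04 (without Het5) with a library left out. Over all cells, log2 fold changes by genotype that turned sign were Hes1 at 0.084 and Hey1 at 0.049 in thinned cells, and Hes5 at -0.062 and Dll3 at 0.022 with cluster shares held equal, an alternative added after seeing the data, as were those restricted to cluster 7 and to pallial cells of cluster 3. With a library left out they ran from -0.27 to 0.17 for Hes1, -0.35 to 0.41 for Hes5, -0.0067 to 0.10 for Hes6, -0.20 to 0.014 for Hey1, -0.0091 to 0.24 for Notch1, -0.027 to 0.33 for Notch2, -0.059 to 0.13 for Dll1 and -0.29 to 0.045 for Dll3. In cluster 3, thinned cells gave 0.021 for Hes1, -0.038 for Hes6 and 0.0078 for Jag1, and leaving out a library gave -0.37 to 0.12 for Hes5, -0.034 to 0.64 for Notch2 and -0.45 to 0.23 for Jag1. Neurog2 there passed in all 13 alternatives. The causes were not tested. No paired analysis was possible because the cell name prefixes carry none of the replicate numbers of the labels.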
